A study of Mus musculus with 13 samples.

Results

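The 53 genes described here work in mitosis and in the entry into it from G2 phase of the cell cycle. They were taken by name from a list of such genes, and all 53 were found among the 24417 named genes of both count tables. For description they were placed in 10 groups by role: transcription factors of G2/M genes, cyclins and their kinase, the anaphase-promoting complex with separase and mitotic entry, mitotic kinases, the spindle checkpoint, the chromosomal passenger complex, centromere and kinetochore, condensins and chromosome structure, kinesins and spindle proteins, and cytokinesis.

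The study asked how well Treg cells function, and whether they reverse disease, once severe autoimmune inflammation is established, and it compared Treg cells restored in such mice by bulk RNA-seq with Treg cells of healthy mice and with Treg "wannabes", which turn on the Foxp3 locus but make no Foxp3 protein. All 13 libraries came from C57BL/6 mice and from T cells sorted out of spleen and lymph node. Control Treg cells (3 libraries) came from healthy males of genotype Foxp3DTR-GFP/yCd4creERT2. Rescued Treg cells (3 libraries) came from males of genotype Foxp3LSL/yCd4creERT2, in which Cre removes a Thy1.1 reporter and STOP cassette from the Foxp3 locus. Male wannabes (2 libraries) came from sick males of genotype Foxp3LSL/yCd4wt, which have no Cre. The mice behind these 8 libraries received 4-hydroxytamoxifen once, when they were 14 days old, and were analysed on day 21. Resting wannabes (3 libraries) came from females of genotype Foxp3LSL/WTCd4wt, and activated wannabes (2 libraries) from females of genotype Foxp3LSL/DTRCd4wt, in which the other allele makes the functional Treg cells sensitive to diphtheria toxin. These females, aged 9 to 11 weeks by their labels, received diphtheria toxin on 4 occasions, 7, 5, 3 and 1 days before analysis. CreERT2 was driven by Cd4, which is not limited to cells that use the Foxp3 locus, and the sort on reporters set which cells entered each library.

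Transcripts of G2/M genes build up late in the cycle, and many of them are switched on by the factors encoded by Foxm1 and Mybl2. Their products condense chromosomes, build the spindle, hold the cell at the spindle checkpoint and divide the cytoplasm. A bulk level of such a transcript reads the share of cells in those phases together with the amount of RNA in each of them, and fewer cells of a type and less RNA per cell cannot be told apart.

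Library totals were 30262093, 34470710 and 33754268 counts in control Treg cells, 34098364 and 31940308 in male wannabes, and 35616611, 25556783 and 36659638 in rescued Treg cells. Resting wannabes had 28059854, 29073949 and 28539116 counts, and activated wannabes 31462226 and 31349153. At these depths 3 counts, the level that a count of 0 allows, corresponded to 0.0834 to 0.119 counts per 1000000 (CPM), for counting error only. CPM used library sizes scaled by TMM within each experiment, so levels set side by side across the male and female tables were not normalised together. No member had fewer than 50 counts in any library.

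The labels were first checked against the targeted locus. Foxp3 stood at 167, 215 and 252 CPM in control Treg cells, at 865, 909 and 1110 CPM in rescued Treg cells and at 84.2 and 99.8 CPM in male wannabes. The 3 rescued libraries were the highest and the 2 wannabe libraries the lowest of the male table, with no overlap between groups. In females Foxp3 was 69.8, 67.3 and 75.1 CPM in resting and 52.8 and 58.2 CPM in activated wannabes. Thy1, which the unexcised cassette also encodes, was 46.7, 41.2 and 44.4 CPM in control and 42.9, 36.4 and 39.9 CPM in rescued Treg cells, against 196 and 327 CPM in male wannabes. Female wannabes had Thy1 at 186, 222 and 195 CPM when resting and at 176 and 200 CPM when activated, so every library of cells sorted as wannabes lay above every library of Treg cells.

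The lists of marker genes showed T cells in every library and lower levels for other cell types. All 7 of 7 CD4 T cell markers were in the table, with sums of 4613 to 7015 CPM and Lck the most abundant, and all 7 Treg cell markers, led by Ctla4, summed to 1919 to 5510 CPM. CD8 T cell markers (2 of 2, led by Cd8b1) summed to 9.72 to 27.8 CPM, erythroid markers (7 of 8, led by Hba-a1) to 1.77 to 19.4 CPM and thymocyte markers (5 of 5, led by Dntt) to 0.490 to 4.17 CPM. Myeloid markers (12 of 12, led by Itgam) summed to 2.09 to 14.4 CPM over all libraries, with 10.5, 5.39 and 11.6 CPM in control and 14.4, 8.30 and 10.2 CPM in rescued Treg cells, which overlapped. Among them Cd68, at 0.229, 0.695 and 0.690 CPM in control and 4.92, 3.08 and 5.12 CPM in rescued Treg cells, Fcer1g, at 0, 0.111 and 0 and at 0.317, 0.830 and 1.04 CPM, and Tyrobp, at 0, 0.139 and 0.0575 and at 0.346, 2.01 and 0.784 CPM, did not overlap between those groups. Itgam ran the other way, at 10.1, 3.28 and 10.4 CPM in control and 6.13, 1.62 and 1.88 CPM in rescued Treg cells, which overlapped. In male wannabes Itgam was at 0.0859 and 0.886 CPM, below every control library. Plasma cell markers (6 of 7, led by Prdm1, which T cells also express) summed to 84.0, 59.96 and 66.9 CPM in control Treg cells, 88.7 and 140 in male wannabes, 134, 150 and 277 in rescued Treg cells, 150, 183 and 119 in resting wannabes and 72.8 and 92.0 in activated wannabes, so the rescued libraries were above the control ones. That sum was mostly Prdm1, at 83.3, 56.4 and 61.8 CPM in control and 131, 147 and 274 CPM in rescued Treg cells, whereas Sdc1 and Derl3 overlapped between these groups. From resting to activated wannabes Sdc1 went from 6.49, 7.76 and 4.17 to 0.446 and 0.386 CPM and Jchain from 4.54, 1.44 and 19.8 to 0.223 and 0.579 CPM, while Derl3 went from 1.06, 1.03 and 1.26 to 4.49 and 3.76 CPM and, of the myeloid markers, Lyz2 from 0.496, 1.48 and 0.735 to 2.36 and 1.77 CPM and Cd68 from 0.425, 0.961 and 1.16 to 2.13 and 1.898 CPM, with no overlap in any of the 5. NK cell markers (5 of 5, led by Klrb1c) summed in the same order of groups to 0.850, 0.612 and 1.38, to 4.87 and 8.77, to 5.41, 8.89 and 4.25, to 2.76, 3.09 and 5.46, and to 3.57 and 5.82 CPM, lowest in the control Treg cells. Of B cell genes, Cd79b was at 28.7, 29.9 and 21.7 CPM in control Treg cells, 30.1 and 36.9 in male wannabes, 31.9, 38.1 and 33.1 in rescued Treg cells, 8.72, 8.79 and 7.53 in resting wannabes and 21.9 and 20.3 in activated wannabes, so both activated libraries were above the resting ones. Other B cell genes did not follow it, with Cd79a at 2.41, 2.33 and 1.96 CPM in resting and 2.45 and 1.99 CPM in activated wannabes and Ms4a1 at 0.425, 0.275 and 0.175 CPM in resting and 0.0318 and 0.129 CPM in activated wannabes. Rag1 and Klra8 had 0 counts in all 13 libraries. In control Treg cells against male wannabes edgeR called 1 of 8 tested myeloid markers higher, where 9.92% of all genes were. It called 1 of 6 tested erythroid and 1 of 4 tested NK cell markers lower, where 6.27% of all genes were. The gates in the paper's methods kept TCRβ-positive, CD4-positive cells and left out cells positive for CD8 or NK1.1. Any part of these cells in the results on the members was not tested.

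The summed level of the 53 members was 2353, 1439.5 and 3358 CPM in control Treg cells, 4983, 2715 and 3114 CPM in rescued Treg cells and 7494 and 3388 CPM in male wannabes. Control and rescued libraries overlapped, since the third control library was above 2 of the rescued ones. Resting wannabes gave 1648, 1604 and 1625 CPM and activated wannabes 4904 and 4836 CPM, with no overlap. A single gene, Smc4, held much of these sums: its share was 29.9, 39.7 and 22.7% in control Treg cells, 8.24, 16.0 and 11.8% in rescued Treg cells and 4.39 and 3.94% in male wannabes. In females the share of Smc4 was 48.8, 34.99 and 54.8% in resting and 11.8 and 12.1% in activated wannabes. The median member, which Smc4 does not weigh on, stood at 25.9, 10.3 and 40.3 CPM in control Treg cells, 74.2, 31.5 and 40.9 CPM in rescued Treg cells and 130 and 44.0 CPM in male wannabes. Its levels were 9.67, 12.6 and 8.58 CPM in resting and 63.5 and 64.1 CPM in activated wannabes.

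Replicates differed more in these genes than in genes at large, and the members moved together within a group. The second control library held the lowest level of its group in 51 of the 53 members and the third control library the highest in 50. Of the rescued libraries the first was highest in 52 members, and the first male wannabe library was above the second in all 53. Within control Treg cells the median SD of a member's log2 level was 1.00, against 0.261 over all genes tested, and the highest library was a median of 3.87 times the lowest. The same SD was 0.550 against 0.292 in rescued Treg cells and 0.933 against 0.314 in male wannabes. Resting wannabes had 0.347 against 0.156, with the second library highest in 43 members, whereas activated wannabes had 0.0607 against 0.0879.

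**Figure D1:**
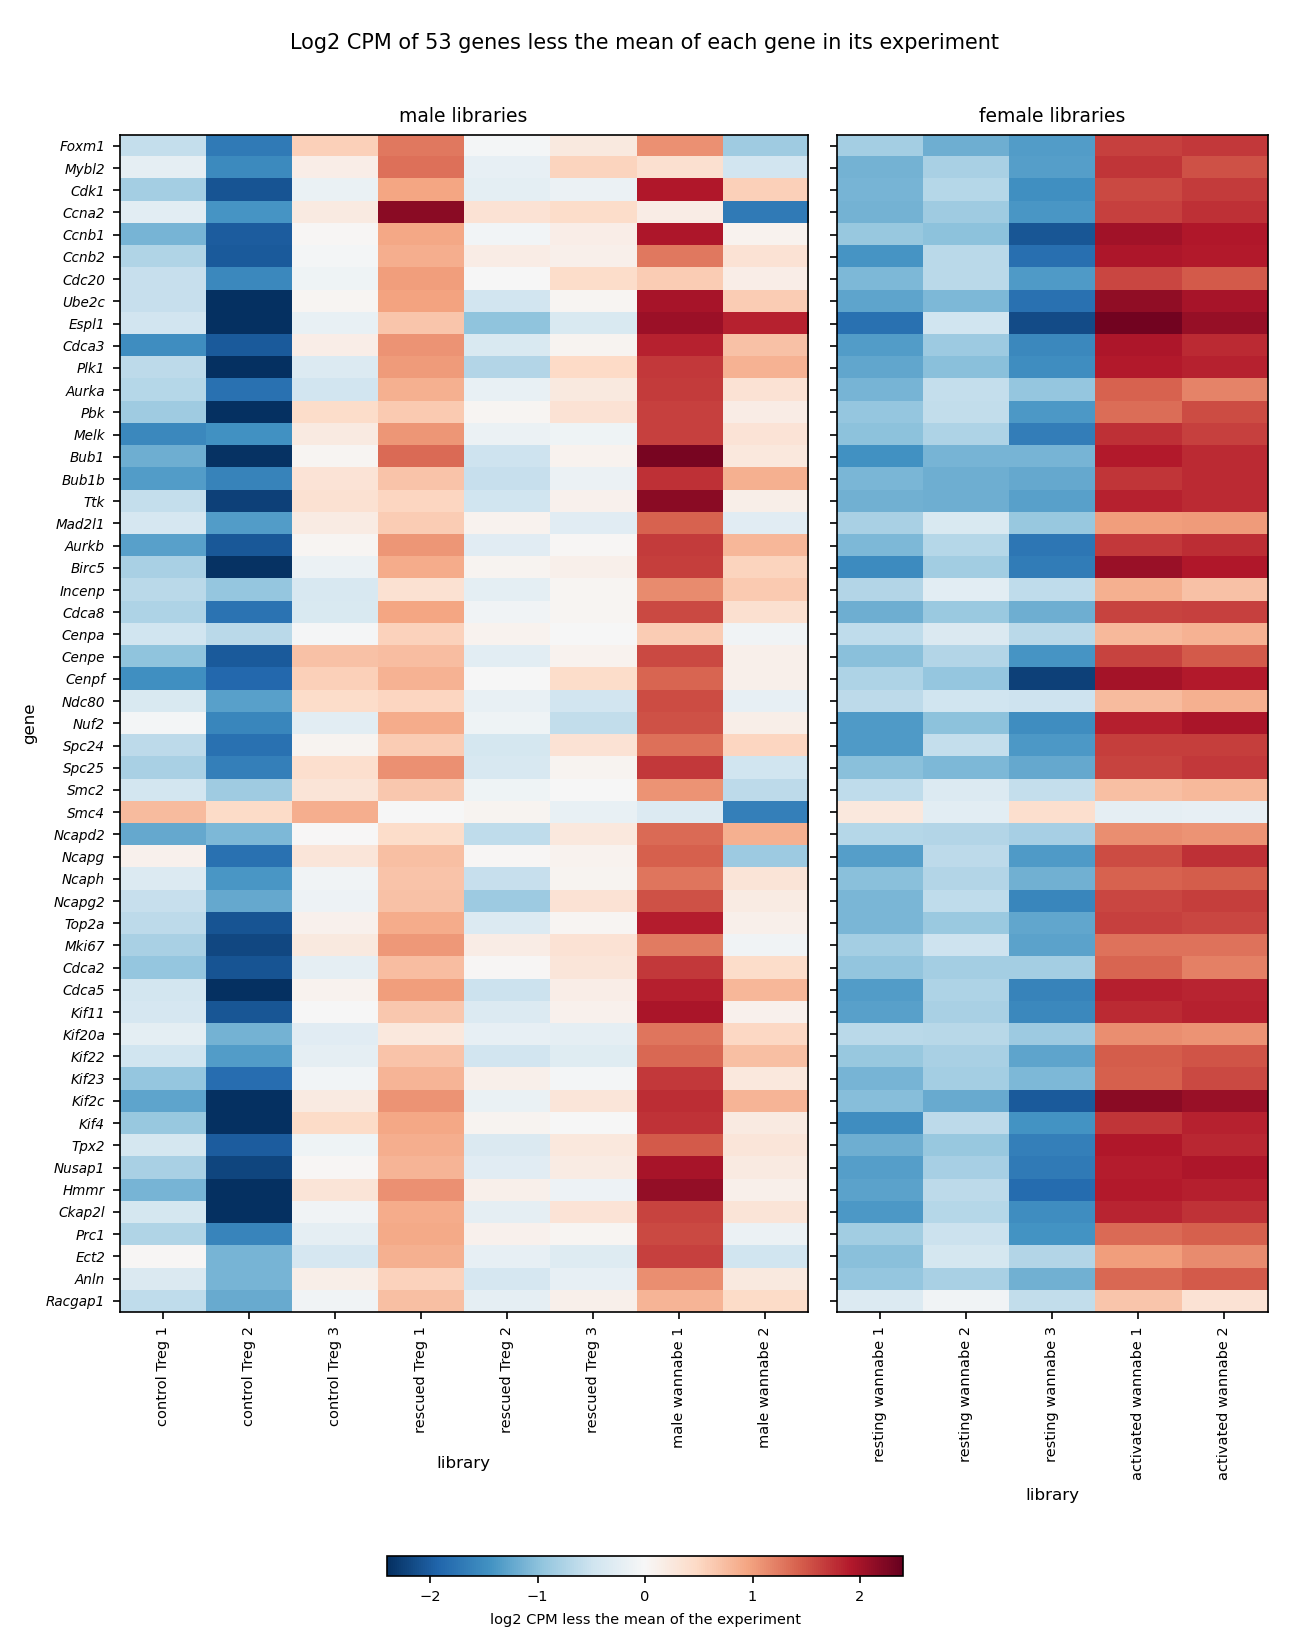
Log2 CPM of each of the 53 members (tiles, ordered by role) less the gene's mean within its experiment, for the 8 male and the 5 female libraries (columns); values past the ends of the colour bar take its end colours. The first male wannabe library is the highest of the male libraries in 48 members and the second control library the lowest in 49.

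Among the transcription factors, Mybl2 was 14.4, 5.56 and 19.0 CPM in control Treg cells, 42.9, 14.7 and 24.9 in rescued Treg cells and 22.2 and 12.2 in male wannabes. The 3 male groups overlapped. Females had Mybl2 at 6.41, 8.38 and 5.57 CPM when resting and at 49.8 and 43.7 CPM when activated, without overlap. Foxm1 followed, at 10.1, 4.34 and 22.8 CPM in control Treg cells, 37.2, 14.9 and 18.1 in rescued Treg cells, 33.4 and 8.27 in male wannabes, 8.43, 6.49 and 5.78 in resting wannabes and 48.9 and 50.8 in activated wannabes. With Mybl2 and Cdc20 it was one of 3 members whose male means ran from control through wannabe to rescued, while 48 ran from control through rescued to wannabe. Without the first male wannabe library the median log2 fold change of rescued Treg cells against male wannabes was 0.08 in place of -0.80, although in some members, such as Espl1, Bub1b and Incenp, both male wannabe libraries were above every rescued library.

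Cyclin B2 transcripts (Ccnb2) were at 55.0, 22.3 and 89.0 CPM in control Treg cells and at 167, 103 and 99.6 CPM in rescued Treg cells, so each rescued library was above each control library. Male wannabes had 219 and 116 CPM, resting wannabes 12.1, 20.9 and 9.07 CPM and activated wannabes 128 and 125 CPM. Cdk1, which encodes the kinase that mitotic cyclins bind, was at 20.3, 8.23 and 32.3 CPM in control Treg cells, 70.3, 30.7 and 32.8 in rescued Treg cells and 138 and 54.3 in male wannabes. Both wannabe libraries exceeded the controls, whereas rescued and control libraries overlapped. Ccna2 was at 40.7, 17.9 and 56.8 CPM in control Treg cells and 219, 62.1 and 65.9 CPM in rescued Treg cells, which did not overlap, and at 55.3 and 14.7 CPM in male wannabes, inside or below the control range. In females Cdk1 was 6.91, 9.51 and 5.25 CPM in resting and 47.4 and 50.6 CPM in activated wannabes, and Ccna2 was 22.0, 27.2 and 18.3 CPM in resting and 155 and 166 CPM in activated wannabes, with no overlap in either gene.

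The ratio of Ccna2 to Cdk1 was looked at after these values were seen. It was 2.01, 2.18 and 1.76 in control Treg cells, 3.11, 2.03 and 2.01 in rescued Treg cells and 0.400 and 0.270 in male wannabes, so both male wannabe libraries were below the other 6. Resting wannabes had ratios of 3.19, 2.86 and 3.49 and activated wannabes of 3.26 and 3.29. Ccna2 alone had its male means in the order wannabe, control, rescued.

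Of the anaphase-promoting complex group, Cdc20 stood at 43.4, 21.4 and 59.2 CPM in control Treg cells, 129, 63.3 and 86.0 CPM in rescued Treg cells and 97.5 and 70.8 CPM in male wannabes. All rescued and male wannabe libraries were above all control libraries, and in females Cdc20 went from 14.7, 20.1 and 12.04 CPM in resting to 97.1 and 88.4 CPM in activated wannabes. The separase gene Espl1 was 17.5, 3.56 and 21.3 CPM in control Treg cells and 38.6, 12.05 and 18.5 CPM in rescued Treg cells, which overlapped, against 101 and 87.8 CPM in male wannabes. It went from 2.37, 6.66 and 1.75 CPM in resting to 49.1 and 41.8 CPM in activated wannabes. Ube2c was at 25.9, 5.67 and 39.3 CPM in control Treg cells, 74.7, 27.7 and 39.4 in rescued Treg cells, 151 and 58.4 in male wannabes, 5.10, 5.84 and 3.40 in resting wannabes and 58.3 and 52.5 in activated wannabes. The annotation puts 22.8% of its exon bases on Tnnc2, a gene on the opposite strand, and the strand of the counting was not given in the sources used here.

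For the mitotic kinases, Plk1 was at 30.3, 8.53 and 37.5 CPM in control Treg cells, 96.3, 28.8 and 65.2 CPM in rescued Treg cells and 154 and 83.8 CPM in male wannabes. The second rescued library lay within the control range, and both wannabe libraries lay above it, while resting wannabes had 7.55, 9.03 and 6.27 CPM and activated wannabes 70.9 and 67.7 CPM. Among spindle checkpoint genes, Bub1b was at 21.3, 17.7 and 68.5 CPM in control, 88.7, 37.2 and 49.8 in rescued Treg cells and 184 and 99.6 in male wannabes, so the wannabe libraries were above all 6 Treg libraries. Bub1 stood at 6.02, 2.34 and 14.8 CPM in control Treg cells, 37.3, 9.96 and 15.1 in rescued Treg cells and 70.5 and 17.0 in male wannabes. Ttk was at 6.70, 1.75 and 13.2 CPM in control, 14.7, 7.11 and 11.0 in rescued Treg cells and 47.6 and 11.2 in male wannabes, where the second library fell inside the range of the Treg cells. From resting to activated wannabes Bub1b went from 13.4, 12.6 and 12.1 to 97.2 and 102 CPM, Bub1 from 2.20, 2.92 and 2.91 to 27.1 and 25.1 CPM, and Ttk from 2.27, 2.23 and 2.00 to 21.9 and 21.1 CPM, none of them with overlap.

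Incenp of the chromosomal passenger complex was less spread. Control Treg cells had 86.9, 71.3 and 105 CPM, rescued Treg cells 176, 117 and 141 CPM and male wannabes 299.7 and 211 CPM, and the 3 groups did not overlap. In females Incenp was 45.1, 62.1 and 48.6 CPM in resting and 135 and 120 CPM in activated wannabes. Cenpa, of the centromere group, was at 112, 98.6 and 153 CPM in control Treg cells and 228, 166 and 155 CPM in rescued Treg cells, just apart, and at 238 and 146 CPM in male wannabes. Ndc80 was at 27.7, 14.3 and 48.9 CPM in control Treg cells, 51.4, 31.5 and 25.8 in rescued Treg cells and 108 and 31.1 in male wannabes, and Nuf2 at 21.9, 7.31 and 18.9, at 42.1, 21.0 and 14.9, and at 66.0 and 24.8 CPM. In both genes the third rescued library lay inside the control range. Females had Cenpa at 48.4, 58.2 and 47.5 CPM when resting and 128 and 133 CPM when activated, Ndc80 at 19.3, 21.6 and 21.4 and then 51.5 and 54.7 CPM, and Nuf2 at 4.04, 5.39 and 3.64 and then 42.2 and 44.8 CPM, again without overlap.

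Smc4 ran against the rest of the condensin group. It was at 703, 571 and 761 CPM in control Treg cells, 411, 435 and 368 CPM in rescued Treg cells and 329 and 134 CPM in male wannabes, 3 ranges that did not overlap. Resting wannabes had 804, 561 and 891 CPM and activated wannabes 577 and 584 CPM, which overlapped. Its partner Smc2 was at 46.7, 34.8 and 79.5 CPM in control Treg cells, 100, 58.9 and 63.1 in rescued Treg cells, 136 and 40.9 in male wannabes, 44.5, 54.4 and 45.7 in resting wannabes and 113 and 116 in activated wannabes. The ratio of Smc4 to Smc2, also chosen after the values were seen, was 15.0, 16.4 and 9.58 in control Treg cells, 4.09, 7.38 and 5.83 in rescued Treg cells, 2.43 and 3.27 in male wannabes, 18.05, 10.3 and 19.5 in resting wannabes and 5.13 and 5.02 in activated wannabes. The lowest control ratio was above every rescued and male wannabe ratio, and the lowest resting ratio above both activated ones.

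Top2a and Mki67 were placed with chromosome structure. Top2a was at 85.8, 31.1 and 143 CPM in control Treg cells, 247, 106 and 138 in rescued Treg cells and 491 and 145 in male wannabes. Mki67 stood at 38.4, 14.3 and 78.5 CPM in control Treg cells, 137, 74.9 and 84.8 in rescued Treg cells and 159 and 62.7 in male wannabes. For both genes the third control library reached into the range of the rescued ones, and the second male wannabe library was inside that range for Top2a and below it for Mki67. Females had Top2a at 45.7, 53.1 and 41.2 CPM when resting and 307 and 298 CPM when activated, and Mki67 at 33.6, 42.0 and 24.0 CPM when resting and 147 and 147 CPM when activated.

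Of the kinesins, Kif20a was at 73.9, 39.6 and 72.4 CPM in control Treg cells, 103, 76.4 and 74.8 CPM in rescued Treg cells and 213 and 124 CPM in male wannabes. The 3 groups did not overlap, although the closest control and rescued libraries were 73.9 and 74.8 CPM, and the annotation has 29.3% of its exon bases on Cdc23, on the opposite strand. Kif2c was at 8.93, 2.86 and 25.9 CPM in control, 47.1, 19.7 and 27.2 in rescued Treg cells, 77.1 and 39.6 in male wannabes, 5.53, 4.77 and 2.52 in resting wannabes and 53.7 and 50.6 in activated wannabes. Among cytokinesis genes, Racgap1 stood at 105, 69.8 and 154 CPM in control, 268, 139 and 176 in rescued Treg cells, 287 and 223 in male wannabes, 126, 148 and 105 in resting wannabes and 249 and 200 in activated wannabes. Its second rescued library was below the third control library. Anln was at 10.9, 6.14 and 15.5 CPM in control Treg cells, 20.9, 10.4 and 12.2 CPM in rescued Treg cells and 31.0 and 16.5 CPM in male wannabes, with rescued and control libraries overlapping. In resting and activated wannabes Kif20a was at 42.2, 42.1 and 36.1 and at 145 and 140 CPM, and Anln at 3.76, 4.22 and 3.15 and at 20.5 and 21.9 CPM, with the activated libraries above the resting ones.

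**Figure D2:**
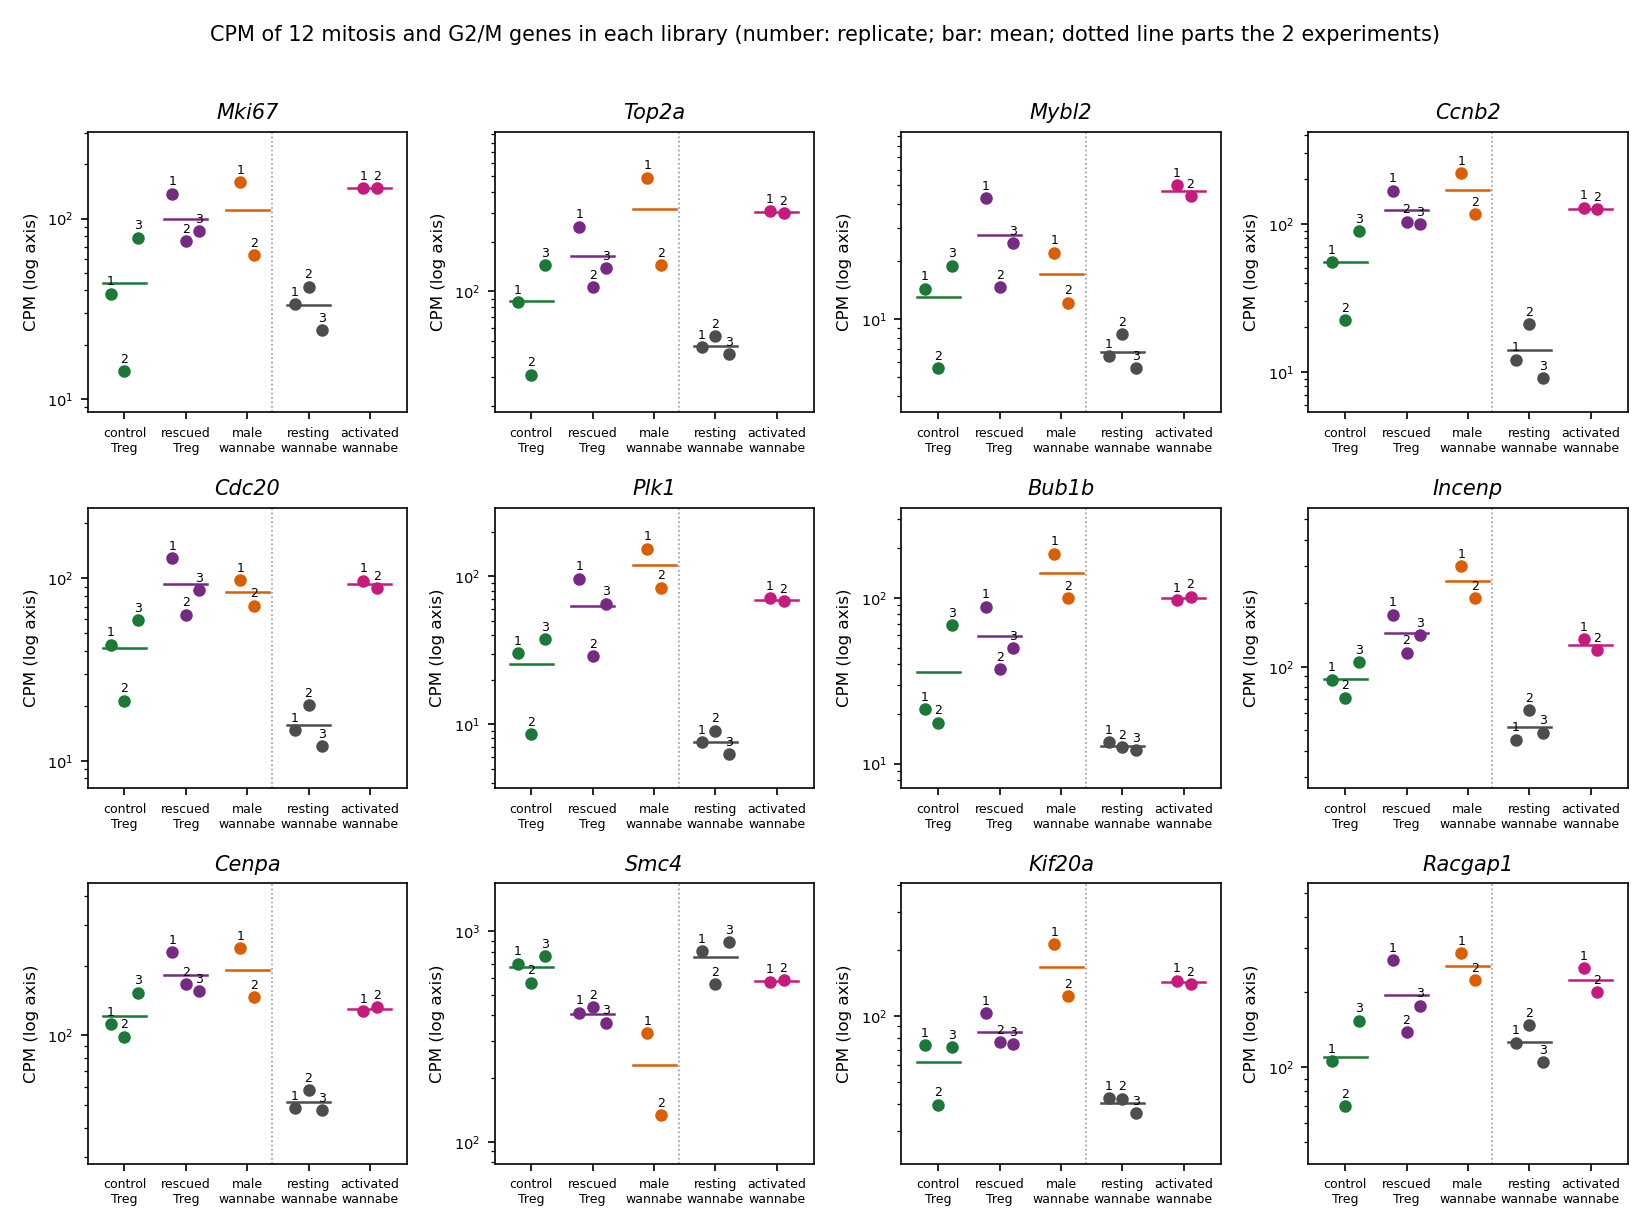
CPM per library on a log axis for 12 members, the most abundant of each role with Mki67 and Top2a; each point is a library, each bar a group mean, and a dotted line parts the male from the female experiment, which were normalised apart. Both activated libraries lie above all resting ones in each panel but that of Smc4, and Smc4 is the panel in which control Treg cells are the highest male group.

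Rescued against control Treg cells sets cells restored for 7 days in inflamed mice beside Treg cells of healthy mice of the same age. The members' estimates leaned to one side: 52 of 53 were positive, Smc4 being the exception, with a median log2 fold change of 0.94 against -0.03 over the 14925 genes tested. Role by role the medians were 1.00 for the transcription factors, 1.19 for cyclins and their kinase, 1.08 for the anaphase-promoting complex group, 1.18 for mitotic kinases, 0.66 for the spindle checkpoint and 1.24 for the chromosomal passenger complex. Centromere and kinetochore genes had a median of 0.70, condensins and chromosome structure 0.77, kinesins 1.02 and cytokinesis 0.74. Even so, no member passed the edgeR quasi-likelihood F test at an adjusted p under 0.05: 0 were called higher, where 1.43% of all genes were, and 0 lower, where 0.864% were. At an unadjusted p under 0.05 the count was 19, against 16.1% of all genes. DESeq2 called 5 higher, namely Aurka, Cdc20, Cdca2, Cdca8 and Incenp, where it called 693 of the 14925 genes higher, and had 17 members at an unadjusted p under 0.05. All 3 rescued libraries lay above all 3 control libraries in 12 members, against 12.6% of all genes, and below them in 1, Smc4, against 11.6%.

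The largest estimates of that comparison were those of Ccna2 (log2 fold change 1.59, SE 0.59, edgeR adjusted p 0.214), Bub1 (1.43, SE 0.70, adjusted p 0.347) and Plk1 (1.32, SE 0.52, adjusted p 0.240). Anln had 0.42 (SE 0.41) and Ndc80 0.26 (SE 0.49), the smallest positive ones. Smc4 had -0.75 (SE 0.26, edgeR adjusted p 0.186). The lowest adjusted p values of edgeR belonged to Incenp, at 0.72 (SE 0.21, adjusted p 0.114), and Cdc20, at 1.17 (SE 0.35, adjusted p 0.125). Mki67 had 1.18 (SE 0.52, edgeR adjusted p 0.294), Top2a 0.92 (SE 0.54, adjusted p 0.454) and Ccnb2 1.16 (SE 0.42, adjusted p 0.201). Without the first rescued library Ccna2 was at 0.73, Bub1 at 0.70, Top2a at 0.49 and Anln at 0.06, and without the third control library Bub1 was at 2.32, Mki67 at 1.91, Top2a at 1.49 and Anln at 0.77. Without the second control library Mki67 was at 0.76, Top2a at 0.51 and Anln at 0.13. The median moved to 0.57 without the first rescued library and to 1.55 without the third control library, Ndc80 turned to -0.08 without the second control or the first rescued library, and Smc4 was called lower by edgeR, at -0.74, without either male wannabe library (adjusted p 0.0133 and 0.0131).

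Control Treg cells against male wannabes sets cells of healthy mice beside cells of sick males of that age that use the Foxp3 locus without the protein. Most members were lower in the Treg cells, and called members came from 9 of the 10 roles. In edgeR 28 members fell, against 6.27% of all genes called lower, and 1, Smc4, rose, against 9.92% called higher, while 24 were not called. DESeq2 called 31 lower and 1 higher, where it called 1539 and 2062 of the 14925 genes. The median log2 fold change was -1.70, against 0.09 over all genes. All 4 members of the chromosomal passenger complex fell (Aurkb, Birc5, Incenp and Cdca8), as did 7 of 10 kinesins and spindle proteins, 3 of 4 cyclins with their kinase and 3 of 4 of the anaphase-promoting complex group. In the kinetochore group Spc24 fell and the other 6 did not pass, in the condensin group 4 of 10 fell, and among the mitotic kinases, spindle checkpoint and cytokinesis genes 2 of 4 each. Counts by role depended on the tool, and roles were not tested against each other: DESeq2 called 4 of 10 kinesins and spindle proteins lower, 4 of 4 mitotic kinases, 3 of 4 spindle checkpoint genes, 3 of 4 cytokinesis genes and 3 of 7 kinetochore genes. Neither Foxm1 nor Mybl2 was called.

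Espl1 had the lowest estimate (log2 fold change -2.75, SE 0.62, edgeR adjusted p 0.0126), followed by Bub1 (-2.51, SE 0.77, adjusted p 0.0466) and Cdk1 (-2.25, SE 0.55, adjusted p 0.0185). Incenp fell by 1.54 (SE 0.23, edgeR adjusted p 0.00187), the lowest adjusted p of the members, and Kif20a fell by 1.44 (SE 0.30, adjusted p 0.00877). Smc4 rose by 1.55 (SE 0.31, edgeR adjusted p 0.00703), and by 2.34 without the first and 0.99 without the second male wannabe library. Top2a, at -1.87 (SE 0.59, edgeR adjusted p 0.0521), and Mki67, at -1.34 (SE 0.57, adjusted p 0.132), did not pass, nor did Mybl2, at -0.40 (SE 0.53), or Ccna2, at 0.14 (SE 0.65). Much rested on single libraries, with 1 wannabe library left after either was removed: the count of members called lower was 3 without the first male wannabe library (Espl1, Incenp and Ncapd2), 7 without the first control library and 11 without the second, where the genes called lower in all numbered 929, 513 and 507 in place of 936, and the median was -0.90 without the first male wannabe library, where Bub1 was -1.15 and Cdk1 -1.42, both no longer called. Mybl2 turned to 0.09 without the first male wannabe library, Ccna2 turned to -0.57 without the second and to -0.25 without the third control library, and Mki67 (-2.08) and Top2a (-2.44) were called without the third control library. Without the first male wannabe library, by contrast, Mki67 was at -0.52 and Top2a at -0.74.

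Rescued Treg cells against male wannabes compares cells with and without restored Foxp3 among mice that were all born with the LSL allele. The rescued libraries are those used against control Treg cells and the wannabe libraries those used in the preceding comparison, so the 3 male comparisons share libraries. Estimates were mostly negative, 48 of 53, with a median of -0.80 against 0.00 over all genes. Only Espl1 (log2 fold change -2.04, SE 0.61, edgeR adjusted p 0.0468) and Incenp (-0.82, SE 0.23, adjusted p 0.0385) fell, where 4.06% of all genes did. With only these 2 groups fitted, Incenp was no longer called. No member was called higher by edgeR (0, against 10% of all genes), and 8 had an unadjusted p under 0.05 in either direction, against 28.0% of all genes, a larger share. DESeq2 called Smc4 higher and 4 lower (Incenp, Kif20a, Kif22 and Ncapd2), where it called 1995 and 1152 of the 14925 genes. Ccna2 had the highest estimate (1.72, SE 0.69, edgeR adjusted p 0.128), then Smc4 (0.81, SE 0.30, adjusted p 0.104) and Mybl2 (0.68, SE 0.55, adjusted p 0.452). Without the first rescued library Ccna2 was at 0.87 and Mybl2 at 0.20, and Mybl2 was at 1.17 without the first male wannabe library. Ttk had -1.42 (SE 0.72, edgeR adjusted p 0.224) and Bub1b -1.28 (SE 0.54, adjusted p 0.145). Without the first male wannabe library the median was 0.08, Mki67 moved from -0.17 to 0.66 and Top2a from -0.96 to 0.17, Ttk was at -0.03 and Bub1b at -0.77, no member was called lower, and Ccna2 (2.97) and Smc4 (1.60) were called higher. The count of members called lower was also 0 without the first control, the second rescued or the third rescued library, and Mki67 was 0.05 without the second rescued library. Without the second male wannabe library Ttk was at -2.16, Top2a at -1.63 and Smc4 at 0.25.

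Activated against resting wannabes compares Foxp3-less cells of adult females in which functional Treg cells had been depleted with those of females that kept them. Here the members moved almost as one. By edgeR 52 of 53 rose, where 11.3% of all genes tested did, and 0 fell, where 11.2% did, and 52 had an unadjusted p under 0.05, against 38.1% of all genes. DESeq2 gave the same counts, 52 and 0, where it called 1890 and 1961 of all genes. The median log2 fold change was 2.78, against -0.01 over 13166 genes. By role the medians ran from 2.05 for cytokinesis and 2.31 for condensins and chromosome structure to 3.12 for the spindle checkpoint and 3.36 for the anaphase-promoting complex group. Espl1 rose by 3.66 (SE 0.51, edgeR adjusted p 0.00461), Kif2c by 3.61 (SE 0.30, adjusted p 0.000793) and Ube2c by 3.53 (SE 0.22, adjusted p 0.000427). Bub1b, which rose by 2.96 (SE 0.10), had the lowest edgeR adjusted p of the members, 0.000157.

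Other rises in that comparison were 2.15 for Mki67 (SE 0.21, edgeR adjusted p 0.00134), 2.696 for Top2a (SE 0.12, adjusted p 0.000249) and 2.78 for Mybl2 (SE 0.19, adjusted p 0.000487). Smc2 rose by 1.25 (SE 0.11, edgeR adjusted p 0.000937) and Racgap1 by 0.83 (SE 0.16, adjusted p 0.0152), the smallest of the 52. Smc4 had -0.37 (SE 0.19, edgeR adjusted p 0.192) and was the member not called. Racgap1 was no longer called without the first activated library (0.66, adjusted p 0.119), and Smc4 was called lower without the second resting library (-0.55, adjusted p 0.00906).

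**Figure D3:**
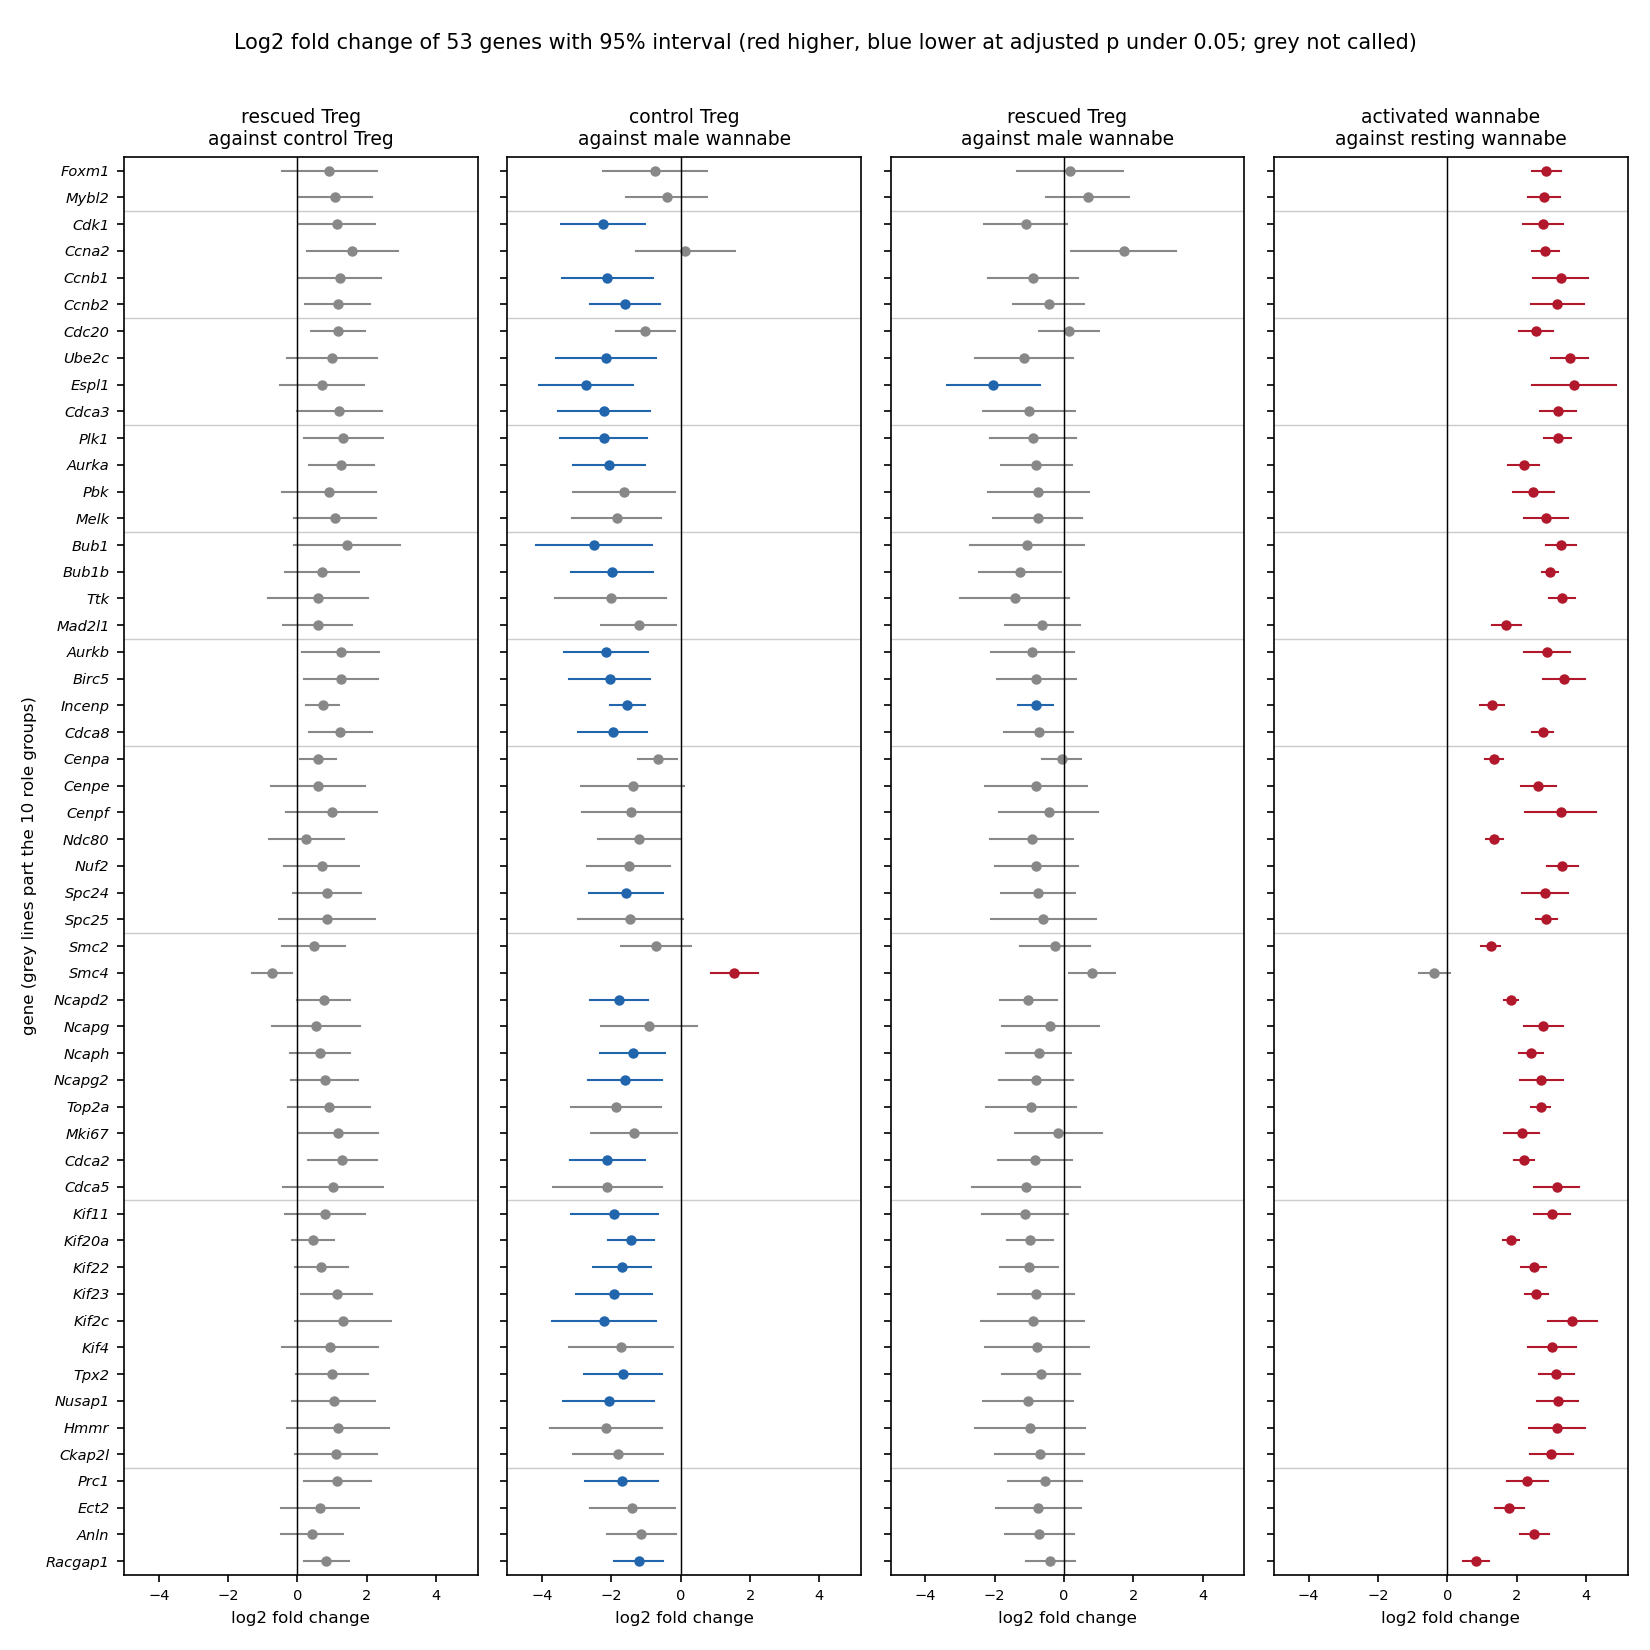
Log2 fold change with its 95% interval for the 53 members in the 4 comparisons, from edgeR; red is called higher, blue called lower and grey not called, and grey lines part the 10 roles. In activated against resting wannabes 52 points are red, and in rescued against control Treg cells all 53 are grey.

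Rescued less control Treg cells minus activated less resting wannabes was then taken in 1 fit of all 13 libraries, as the difference of changes. Sex, age, count table, cell type, the treatments and the restoration of Foxp3 from another allele cannot be told apart in it. Of the 53 members 52 had a negative estimate, with a median of -1.84 against -0.03 over 15201 genes. For 51 of these genes the estimate within Treg cells was the smaller of 2 positive ones, and for Smc4 it was the lower of 2 negative ones (-0.75 against -0.37 in the separate fits). In edgeR 0 members were called higher, where 0.803% of all genes were, and 0 lower, where 0.73% were. The count at an unadjusted p under 0.05 was 38, against 13.8% of all genes, and DESeq2 called 10 lower (Anln, Ccnb2, Kif20a, Kif22, Ncapg2, Ncaph, Nuf2, Spc24, Tpx2 and Ttk), where it called 357 of the 15201 genes lower. Espl1 had the lowest estimate (-2.93, SE 0.89, edgeR adjusted p 0.137), then Ttk (-2.69, SE 0.89, adjusted p 0.176) and Nuf2 (-2.61, SE 0.68, adjusted p 0.0818). At the other end were Racgap1, at 0.01 (SE 0.41), Smc4, at -0.36 (SE 0.38), and Incenp, at -0.56 (SE 0.30). The members called lower by edgeR numbered 9 without the second control library (Anln, Birc5, Ccnb2, Espl1, Kif20a, Kif22, Nuf2, Tpx2 and Ube2c) and 3 without the first rescued library. Of all genes these fits called 106 and 91 lower, in place of 111. The median was -1.13 without the third control library.

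Genes can be set beside each other only per length of exon, since a longer transcript gives more counts. The order of the members by CPM per kilobase of annotated exon differed between groups. Male wannabes had Ccnb2 highest, then Incenp at 59.0, Plk1 at 53.95, Birc5 at 48.7, Cdc20 at 45.05 and Smc4, whereas resting wannabes had Smc4 highest, then Racgap1 at 17.8. Group means of Ccnb2 per kilobase were 36.2 in control Treg cells, 80.6 in rescued Treg cells, 110 in male wannabes, 9.17 in resting wannabes and 82.8 in activated wannabes. Those of Smc4 were 130, 77.7, 44.4, 144 and 112 in the same order, so Smc4 was the higher of the pair in control Treg cells, resting wannabes and activated wannabes and the lower in male wannabes, while in rescued Treg cells the means were close.

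Lists of other cell cycle genes were counted in the same fits, where edgeR called these shares of all genes higher and lower. They were 1.43 and 0.864% in rescued against control Treg cells and 9.92 and 6.27% in control Treg cells against male wannabes. Rescued Treg cells against male wannabes had 10 and 4.06%, activated against resting wannabes 11.3 and 11.2%, and the difference of changes 0.803 and 0.73%. Of 65 other mitosis genes in the table (70 listed), 0 were called in rescued against control Treg cells by edgeR (15 at an unadjusted p under 0.05, and 8 higher by DESeq2), with a median of 0.68. Against male wannabes 22 fell in control Treg cells, and 58 rose in activated wannabes. DNA replication genes (51) gave 0 calls in rescued against control Treg cells by edgeR (9 at an unadjusted p under 0.05, and 1 by DESeq2), 24 lower in control Treg cells than in male wannabes and 47 higher in activated wannabes, but with a median of 1.00 there, against 2.78 for the members. For 20 cyclins, kinases and E2F factors of G1 phase the medians were 0.31, -0.35 and 0.52 in those 3 comparisons; by edgeR 0 were called in the first (6 at an unadjusted p under 0.05, and 5 higher and 1 lower by DESeq2), E2f8 fell in the second, and 12 rose and Ccnd2 fell in the third. In the second DESeq2 called 28 other mitosis genes and 28 DNA replication genes lower, and 2 G1 genes higher and 5 lower. In the third it called 59, 48 and 13 higher, and 1 G1 gene lower. Rescued Treg cells against male wannabes gave medians of -0.59 for other mitosis genes, -0.69 for DNA replication genes and -0.16 for G1 genes. There edgeR called 2 higher and 5 lower, 3 and 10, and 3 and 3, in that order. DESeq2 called 5 and 9, 3 and 19, and 4 and 3. In the difference of changes the medians were -1.40 (1 called lower by edgeR, 9 by DESeq2), -0.76 (0 by edgeR, 26 at an unadjusted p under 0.05, and 10 lower by DESeq2) and -0.57 (2 lower by edgeR, 5 by DESeq2).

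The 2 largest and 2 smallest estimates of each list were as follows. In rescued against control Treg cells they were Sapcd2 (2.60), Fam64a (1.65), Cenpt (-0.38) and Pttg1 (-0.36) among mitosis genes, Clspn (0.87), Rrm1 (0.78), Gins3 (-0.67) and Cdc7 (-0.34) among replication genes, and Ccne1 (1.71), E2f6 (1.44), Myc (-0.63) and E2f5 (-0.35) among G1 genes. For control Treg cells against male wannabes they were Fam83d (0.80), Wee1 (0.32), Fam64a (-2.76) and Gtse1 (-2.37), then Dbf4 (0.88), Cdt1 (0.55), Pole (-1.77) and Rrm2 (-1.73), then E2f5 (1.31), Tfdp2 (1.21), E2f8 (-2.63) and E2f7 (-1.26). For rescued Treg cells against male wannabes they were Sapcd2 (2.07), Fam83d (1.85), Iqgap3 (-1.61) and Depdc1b (-1.61), then Dbf4 (1.33), Cdt1 (1.17), Gins1 (-1.24) and Gins2 (-1.22), then E2f6 (2.50), Tfdp2 (1.32), E2f8 (-1.41) and Ccnd1 (-0.97). Activated against resting wannabes gave Iqgap3 (4.15), Depdc1b (3.74), Pttg1 (-0.19) and Cenpt (-0.06), then Clspn (3.35), Rrm2 (2.58), Gins4 (0.08) and Rpa1 (0.17), then E2f8 (3.13), E2f7 (2.67), Ccnd2 (-0.50) and E2f5 (-0.09). In the difference of changes they were Zwint (0.22), Gsg2 (0.19), Iqgap3 (-3.59) and Depdc1b (-3.53), then Rpa1 (0.09), Ung (-0.03), Clspn (-2.47) and Mcm10 (-2.03), then E2f6 (1.39), E2f4 (0.45), E2f7 (-1.99) and E2f8 (-1.90).

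Among 17 tested cell cycle inhibitors (18 listed), Cdkn1a and Fzr1 were called by edgeR in rescued against control Treg cells, and DESeq2 called 5 (Cdkn1a, Cdkn1c, Cdkn2b, Cdkn2c and Fzr1). Cdkn1a was at 2.88, 5.25 and 4.26 CPM in control Treg cells, 15.6, 9.92 and 11.6 CPM in rescued Treg cells and 43.7 and 40.5 CPM in male wannabes, 3 groups that did not overlap. It rose by 1.58 in rescued against control Treg cells (edgeR adjusted p 0.0238), and Fzr1, whose product directs the anaphase-promoting complex out of mitosis, rose by 1.07 (adjusted p 0.0248). In activated against resting wannabes Cdkn1a rose by 2.04, while Rb1 fell by 1.22 and Btg1 fell by 1.02. By edgeR the list had 5 genes higher and 3 lower in control Treg cells against male wannabes. It had 5 and 2 in rescued Treg cells against male wannabes, and 5 and 4 in activated against resting wannabes, where 16 were tested. Of all genes 9.92 and 6.27%, 10 and 4.06%, and 11.3 and 11.2% were called in these comparisons. DESeq2 called 5 and 4, 6 and 3, and 5 and 5 of the list. The edgeR medians were 0.29, 0.34 and -0.02. The largest estimates were 4.69 for Cdkn1c and 2.28 for Btg1 in rescued Treg cells against male wannabes, and 2.66 for Cdkn1c and 1.74 for Btg1 in control Treg cells against male wannabes. Cdkn1c was at 33.4, 5.14 and 9.43 CPM in rescued Treg cells, highest by far in the first library, and at 0.544 and 0.689 CPM in male wannabes. Leaving aside Cdkn2a and Cdkn2b, the smallest were those of Cdkn1a, which fell by 1.77, and Cdkn2d, which fell by 0.89, in the former, and again of Cdkn1a, which fell by 3.35, and Cdkn2d, which fell by 0.86, in the latter. Cdkn2a was under 3 counts in all 3 control libraries and Cdkn2b had 0 counts in 2 of them, and no fold is given for these 2 genes.

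By position the members were not gathered in one place: GENCODE M21 (GRCm38) put them on 18 chromosomes, with at most 10 on one, chromosome 2. Exons of 15 members shared bases with another annotated gene, over 20% of the exon bases in Kif20a and Ube2c. The next were Kif4 with 15.1% (Pdzd11), Ncapg with 13.4% (Lcorl), Ccna2 with 12.5% (Exosc9) and Prc1 with 11.1% (Rccd1), all with the other gene on the opposite strand. Named pseudogenes were annotated for Ccnb1, Ccnb2, Kif22 and Kif4, and how reads that match both were counted is not given in the sources used here.

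Promoter sequence was a feature that the choice of the members did not use. RefSeq promoters (GRCm38.p6, 250 bases before the start to 50 after it) were matched for 43 members, with 45 entries; Foxm1, Ccna2, Pbk, Aurkb, Incenp, Spc24, Smc4, Cdca2, Kif20a and Tpx2 had none. Letters were searched on both strands, first as the CCAAT box, which reads ATTGG on the opposite strand, and then as the cell cycle homology region, written TTTGAA or TTCGAA, the former of which reads TTCAAA on the opposite strand while the latter is its own reverse complement. CCAAT lay before the start in 33 of the 45 entries, 73.3%, against 33.8% of all 32851 promoters and 34.9% of 14526 of genes tested. At least 2 copies were in 48.9%, against 10.1% of all and 12.2% of those tested. TTTGAA or TTCGAA lay before the start in 44.4%, against 17.1% of all and 12.7% of those tested, and both kinds of letters in 37.8%, against 6.02 and 4.82%.

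The TTTGAA or TTCGAA letters were densest close to the start. Within 50 bases on either side of it, a window chosen after the promoters were seen, they were in 33 entries, 73.3%, against 5.31% of all promoters and 3.66% of those tested, and together with CCAAT before the start in 64.4%, against 2 and 1.48%. By gene, 31 members held them there and 12 did not: Birc5, Ccnb1, Cenpe, Kif2c, Mad2l1, Melk, Mki67, Mybl2, Ncapd2, Ncaph, Nuf2 and Nusap1. Such a match describes letters, and binding to them was not measured in these samples.

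The 250 bases before the start are shown for the first 3 members by mean CPM, not scaled for length, that held both kinds of letters, Top2a (chr11:99024190-99024439, minus strand), Ncapd2 (chr6:125191587-125191836, minus strand) and Ccnb2 (chr9:70421555-70421804, minus strand), and for the first by the same order with neither, Birc5 (chr11:117848987-117849236, plus strand), to let their spacing be compared. Each reads 5′ to 3′ along its gene and ends at the base before the start, with both kinds of letters, on either strand, in capitals. In these bases Top2a had 6 CCAAT and 4 TTTGAA or TTCGAA matches, Ncapd2 3 and 1, and Ccnb2 3 and 1. Ccnb2 also had a TTTGAA or TTCGAA match from base 5 counted from the start, which the bases shown do not reach.
Top2a: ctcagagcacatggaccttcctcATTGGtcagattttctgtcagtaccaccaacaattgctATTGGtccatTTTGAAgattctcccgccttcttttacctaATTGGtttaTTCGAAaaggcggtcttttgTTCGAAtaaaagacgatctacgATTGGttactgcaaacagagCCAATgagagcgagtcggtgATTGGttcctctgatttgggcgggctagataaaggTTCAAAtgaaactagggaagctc
Ncapd2: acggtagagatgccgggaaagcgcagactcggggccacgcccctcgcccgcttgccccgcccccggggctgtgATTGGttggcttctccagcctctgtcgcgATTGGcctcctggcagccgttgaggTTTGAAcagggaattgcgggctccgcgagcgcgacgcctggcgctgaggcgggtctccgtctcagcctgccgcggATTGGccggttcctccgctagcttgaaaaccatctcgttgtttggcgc
Ccnb2: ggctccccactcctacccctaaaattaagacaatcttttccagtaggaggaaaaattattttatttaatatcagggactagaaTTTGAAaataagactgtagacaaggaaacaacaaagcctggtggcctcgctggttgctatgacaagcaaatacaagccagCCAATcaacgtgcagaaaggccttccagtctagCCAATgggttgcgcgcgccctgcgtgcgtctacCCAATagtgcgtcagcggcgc
Birc5: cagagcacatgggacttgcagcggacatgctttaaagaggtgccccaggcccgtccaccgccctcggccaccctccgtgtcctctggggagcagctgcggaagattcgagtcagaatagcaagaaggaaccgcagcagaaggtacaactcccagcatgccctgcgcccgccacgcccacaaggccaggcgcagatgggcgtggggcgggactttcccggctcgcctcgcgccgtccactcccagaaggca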

How the data were processed

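The deposited values were raw counts per gene, which the authors made by aligning reads to GRCm38 with STAR 2.7.3a; annotation and strand of the counting are not given in the sources used here. The 8 male and 5 female libraries came in a table each and were fitted apart, in R 4.3.3. Genes were filtered with filterByExpr, scaled by TMM and tested with the edgeR 4.0.16 quasi-likelihood F test (14925 genes in males, 13166 in females, 15201 in all 13), and p was adjusted by Benjamini-Hochberg over all genes tested, with calls at an adjusted p under 0.05. All 53 members were tested. The 4 entries with no gene name (0.00353 to 0.00841% of counts) were left out. Replicates were taken as separate mice, as the methods call them biological. Members and lists were chosen with earlier results of these data known. Values in every library are given for Mki67, Top2a, the most abundant member of each role and, per comparison, the 3 largest and 3 smallest estimates; other genes were named after their values were seen. The other lists were other mitosis genes, DNA replication genes, G1 genes and inhibitors. Alternatives were DESeq2 1.42.0, its size factors, no filter, the 2 compared groups alone, a replicate block and leaving out each library. The code was tested on simulated data. The sum of 1 marker list is not reported.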

Additional observations from a re-analysis of the deposited data

Results flagged for a closer look

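Of the genes on the lists other than the members, 4 were called by the edgeR test of the difference of changes. They were 1 of 65 other mitosis genes and 2 of 20 G1 genes, called lower, and 1 of 17 cell cycle inhibitors, called higher. Of 51 DNA replication genes 0 were called. Among all genes 0.73% were called lower and 0.803% higher. DESeq2 called 9 other mitosis genes, 10 DNA replication genes and 5 G1 genes lower and 2 cell cycle inhibitors higher. Of the 15201 genes it called 357 lower and 413 higher. The difference was -3.59 in log2 for Iqgap3 (adjusted p 0.0191), which was at 4.19, 3.00 and 7.02 CPM in control Treg cells, 11.3, 4.86 and 4.53 CPM in rescued Treg cells, 0.390, 0.858 and 1.30 CPM in resting wannabes and 15.3 and 15.0 CPM in activated wannabes. For E2f2 it was -1.35 (edgeR adjusted p 0.0132) and for E2f3 -1.66 (adjusted p 0.0268). Btg1 differed by 1.56 (edgeR adjusted p 0.0167). Sex, age, count table, treatment and the restoration of Foxp3 differ with the cell type in each case.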

How the results depend on the processing

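Directions of the medians and of most named members held under the other settings: apart from leave-one-out, 56 counts and medians stayed alike and 13 moved, and of the named members' results 163 kept their direction and side of the threshold, 16 became called, 3 lost their call and 2 reversed. With leave-one-out 106 counts and medians stayed alike, 19 moved and 1 reversed, and 294 of the named results stayed, 15 became called, 14 lost their call and 13 reversed. DESeq2 called 5 members higher in rescued against control Treg cells, 1 higher and 4 lower in rescued Treg cells against male wannabes, and 10 lower in the difference of changes; with no filter these were 2, 2 and 5, and 1. Of all genes these settings called 693, 1995 and 1152, and 357 (DESeq2) and 401, 1586 and 614, and 137 (no filter). With only the 2 groups compared, 1 member, Smc4, was called lower in rescued against control Treg cells (-0.73, adjusted p 0.0190 in edgeR). In rescued Treg cells against male wannabes that setting called Espl1 and Kif20a but not Incenp, where of all genes it called 1087 higher and 334 lower. Whether replicate numbers pair the samples is not given in the sources used here, and correlations do not settle it. Rescued and control libraries of the same number had 0.0838, 0.0686 and 0.0135, and those of different numbers -0.121 to 0.0620. A fit with the replicate block called 8 higher in rescued against control Treg cells, and 1 higher and 11 lower in rescued Treg cells against male wannabes. It called 41 lower in control Treg cells against male wannabes and 3 lower in the difference. Of all genes it called 253, 1451 and 517, 856 and 98, in that order. Racgap1's difference of changes, 0.01 in edgeR, was -0.0061 in DESeq2 and -0.0059 with its size factors. The cause was not tested for any of these. Leaving out each library in turn, where a lone library of a group was assumed to vary like the other groups, the range from lowest to highest was 0 to 1 members called lower, a median of 0.57 to 1.55 and Ndc80 at -0.081 to 0.79 in rescued against control Treg cells. In control Treg cells against male wannabes it was 3 to 40 called lower, a median of -2.28 to -0.90, Ccna2 at -0.57 to 1.39 and Mybl2 at -0.82 to 0.089. In rescued Treg cells against male wannabes it was 0 to 2 called higher, 0 to 3 called lower, a median of -1.34 to 0.080, Mki67 at -0.73 to 0.66 and Top2a at -1.63 to 0.17. Activated against resting wannabes had 0 to 1 called lower and 51 to 52 higher, and the difference of changes 0 to 9 called lower, a median of -2.24 to -1.13 and Racgap1 at -0.30 to 0.34. Each member had at least 50 counts in every library; whether the number of libraries or the spread between them limited the calls was not tested.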

Other observations

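Groups had 2 or 3 libraries, and with 2 the spread was largely borrowed from the other groups. Male comparisons share libraries, so they are not independent of each other. Levels of the male and female tables were normalised apart, and no library joins them. Bulk RNA does not give the share of cells in G2 phase or mitosis, DNA content was not measured, and transcripts with a low level in few cells cannot be told from those in many. The design text of the series counts the activated and resting libraries the other way round from the sample titles and genotypes, which were followed here.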
